A study of Mus musculus with 16 samples.

Results

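7 genes of fatty acid elongation and desaturation, *Elovl1*, *Elovl2*, *Elovl3*, *Elovl5*, *Fads1*, *Fads2* and *Fads3*, were examined for open chromatin in mouse liver. DNase-seq maps DNase hypersensitive sites (DHS), stretches of chromatin where the enzyme DNase I releases many short fragments from nuclei. Every DHS region overlapping 1 of these genes, or lying within 20 kb upstream or downstream of it on the mouse assembly mm9, was taken, which gave 48 of the 51482 DHS regions of the whole study. Nuclei came from livers of 8-week-old mice of both sexes and 2 inbred strains, C57BL/6J (B6), a laboratory strain, and CAST/EiJ (CAST), derived from wild mice of another subspecies. Each of the 4 groups (male B6, female B6, male CAST and female CAST) had 4 libraries, and the labels name no treatment. The 4 libraries of a group were pooled before peaks were called, so each group is 1 peak list with no replicate error, and no difference between lists could be tested. A region missing from a list had no peak past the threshold of that list, which is not the same as closed chromatin.

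Elongases of the ELOVL family carry out the condensing step that adds carbons from malonyl-CoA to a fatty acid in the endoplasmic reticulum. ELOVL1 and ELOVL3 act mainly on saturated and monounsaturated chains, and ELOVL2 and ELOVL5 on polyunsaturated chains. Front-end desaturases of the FADS family insert double bonds, FADS2 early and FADS1 later on the way to arachidonic acid and docosahexaenoic acid, while FADS3 acts on sphingoid bases. In liver these products enter phospholipids, cholesterol esters and secreted lipoproteins. *Fads1*, *Fads2* and *Fads3* lie side by side on chromosome 19, and *Elovl3* lies farther along the same chromosome.

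The sequences below are given because the results turn on these 5 regions. Each is the mm9 reference, which is the B6 genome, on the plus strand, 5′ to 3′, from the 300 bases around the summit of the strongest peak, with annotated untranslated bases left out. CAST variants are not shown. Capitals mark GGGCGG (a GC box) on either strand and CACGTG (an E-box). The regions over the start sites of *Elovl3* and *Elovl2* had a peak in the male lists and in no female list, those over the start sites of *Fads2* and *Elovl5* had a peak in all 4 lists, and the region that runs from the end of *Elovl3* into the neighbouring gene *Pitx3* differed most between strains. The stretch printed from that last region lies past the end of *Elovl3*.
Elovl3 promoter, chr19:46206201-46206386: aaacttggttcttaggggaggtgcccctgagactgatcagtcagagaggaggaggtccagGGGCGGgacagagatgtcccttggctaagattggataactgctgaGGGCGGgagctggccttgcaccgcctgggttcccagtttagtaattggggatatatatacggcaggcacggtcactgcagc
Elovl2 promoter, chr13:41315776-41316075: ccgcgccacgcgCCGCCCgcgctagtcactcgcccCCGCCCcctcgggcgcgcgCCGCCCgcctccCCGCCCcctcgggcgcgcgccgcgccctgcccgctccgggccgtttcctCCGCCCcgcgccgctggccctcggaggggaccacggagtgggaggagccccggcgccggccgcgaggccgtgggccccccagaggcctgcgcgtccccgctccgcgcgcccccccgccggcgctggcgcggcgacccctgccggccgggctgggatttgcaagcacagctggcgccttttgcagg
Fads2 promoter, chr19:10176126-10176425: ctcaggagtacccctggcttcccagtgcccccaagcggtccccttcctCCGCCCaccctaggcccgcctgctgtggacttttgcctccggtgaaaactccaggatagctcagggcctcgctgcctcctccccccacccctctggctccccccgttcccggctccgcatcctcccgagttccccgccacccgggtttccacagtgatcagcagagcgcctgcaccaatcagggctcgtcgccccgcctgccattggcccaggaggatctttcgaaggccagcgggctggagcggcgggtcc
Elovl5 promoter, chr9:77764943-77765170: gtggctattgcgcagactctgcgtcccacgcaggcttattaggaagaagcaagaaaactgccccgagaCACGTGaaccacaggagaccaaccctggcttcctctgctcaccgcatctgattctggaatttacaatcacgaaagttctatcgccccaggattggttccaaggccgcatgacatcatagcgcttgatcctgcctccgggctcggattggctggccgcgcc
Pitx3 stretch past Elovl3, chr19:46210726-46211025: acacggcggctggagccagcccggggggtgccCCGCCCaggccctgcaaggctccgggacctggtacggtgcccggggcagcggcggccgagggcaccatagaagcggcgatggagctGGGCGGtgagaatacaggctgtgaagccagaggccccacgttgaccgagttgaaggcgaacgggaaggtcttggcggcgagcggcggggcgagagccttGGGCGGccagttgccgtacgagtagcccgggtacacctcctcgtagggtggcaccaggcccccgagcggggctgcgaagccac

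The *Elovl2* window held 5 GC boxes and was 83.7% G and C. The *Elovl3* promoter window held 2 GC boxes and, in its untranslated bases that are not printed, an E-box. The *Pitx3* window held 3 GC boxes, the *Fads2* window 1 GC box and the *Elovl5* window 1 E-box. These are matches of letters, not sites shown to be bound.

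The male lists were the longer ones, with 38751 (B6) and 39562 (CAST) peaks against 26271 and 24888 for females. The background recovered from the peak values was 15.4 and 13.9 overlapping fragments for B6 males and females and 14.3 and 7.94 for CAST, so the female CAST pool was the shallowest. Of 10 hepatocyte markers, 9 had a promoter DHS in each list (*Serpina1a* had none), as had 0 of 5 Kupffer cell and 0 of 5 lymphocyte markers in any list. Promoter DHS of the 5 sinusoidal endothelial markers were found for 5 and 3 in B6 males and females and 2 and 1 in CAST, and of the 5 stellate cell markers for 2 and 1 in B6 and 2 and 0 in CAST. Of the 5 bile duct markers, 1 had a promoter DHS in each list. The part of these cells in the results was not tested. In whole liver, more cells with an open site and a more open site per cell cannot be told apart.

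Of the 48 regions, 22 were in all 4 lists (45.8%, 95% Wilson interval 32.6 to 59.7%), against 35.6% of all regions. A further 13 were in 1 list, 8 in 2 lists and 5 in 3 lists. By position, 12 regions lay within 2.5 kb of a start site of 1 of the 7 genes, 8 at promoters of neighbouring genes and 28 farther from any start site, and 37 had 1 of the 7 genes as the nearest. By annotation, 19 were intronic and 12 intergenic. The windows of *Fads2* and *Fads3* overlapped and shared 6 regions, which are counted once. All protein-coding genes had a median of 2 regions in the same window, and each of the 7 had 5 to 10. For the 22 regions in all 4 lists, the summits of the lists spread over a median of 99.5 bp, against 91 bp for all regions in all 4 lists.

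**Figure D1:**
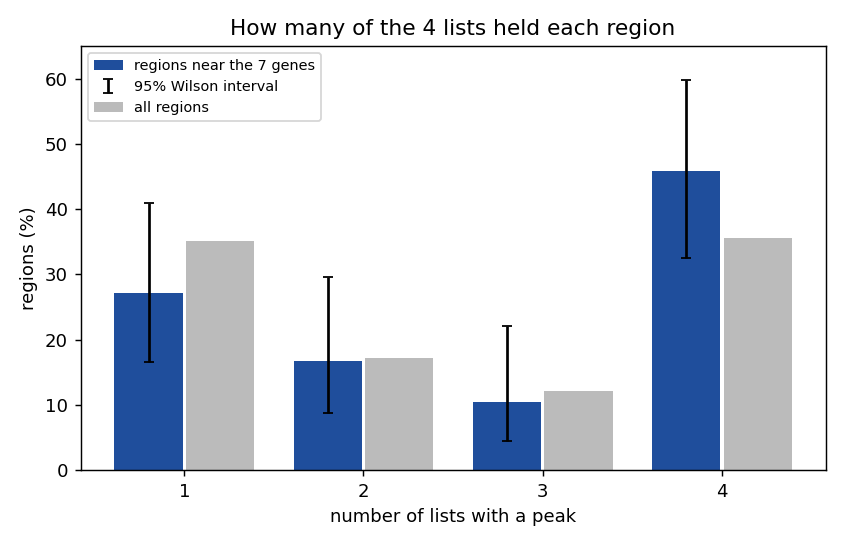
Percent of regions (vertical axis) found in 1, 2, 3 or 4 of the lists (horizontal axis), for the 48 regions near the 7 genes (blue, with 95% Wilson intervals for counting error only) and for all 51482 regions (grey). Regions in all 4 lists made up 45.8% of the 48 and 35.6% of all regions. The intervals treat neighbouring regions as independent, so they do not test the 48 against all regions.

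**Figure D2:**
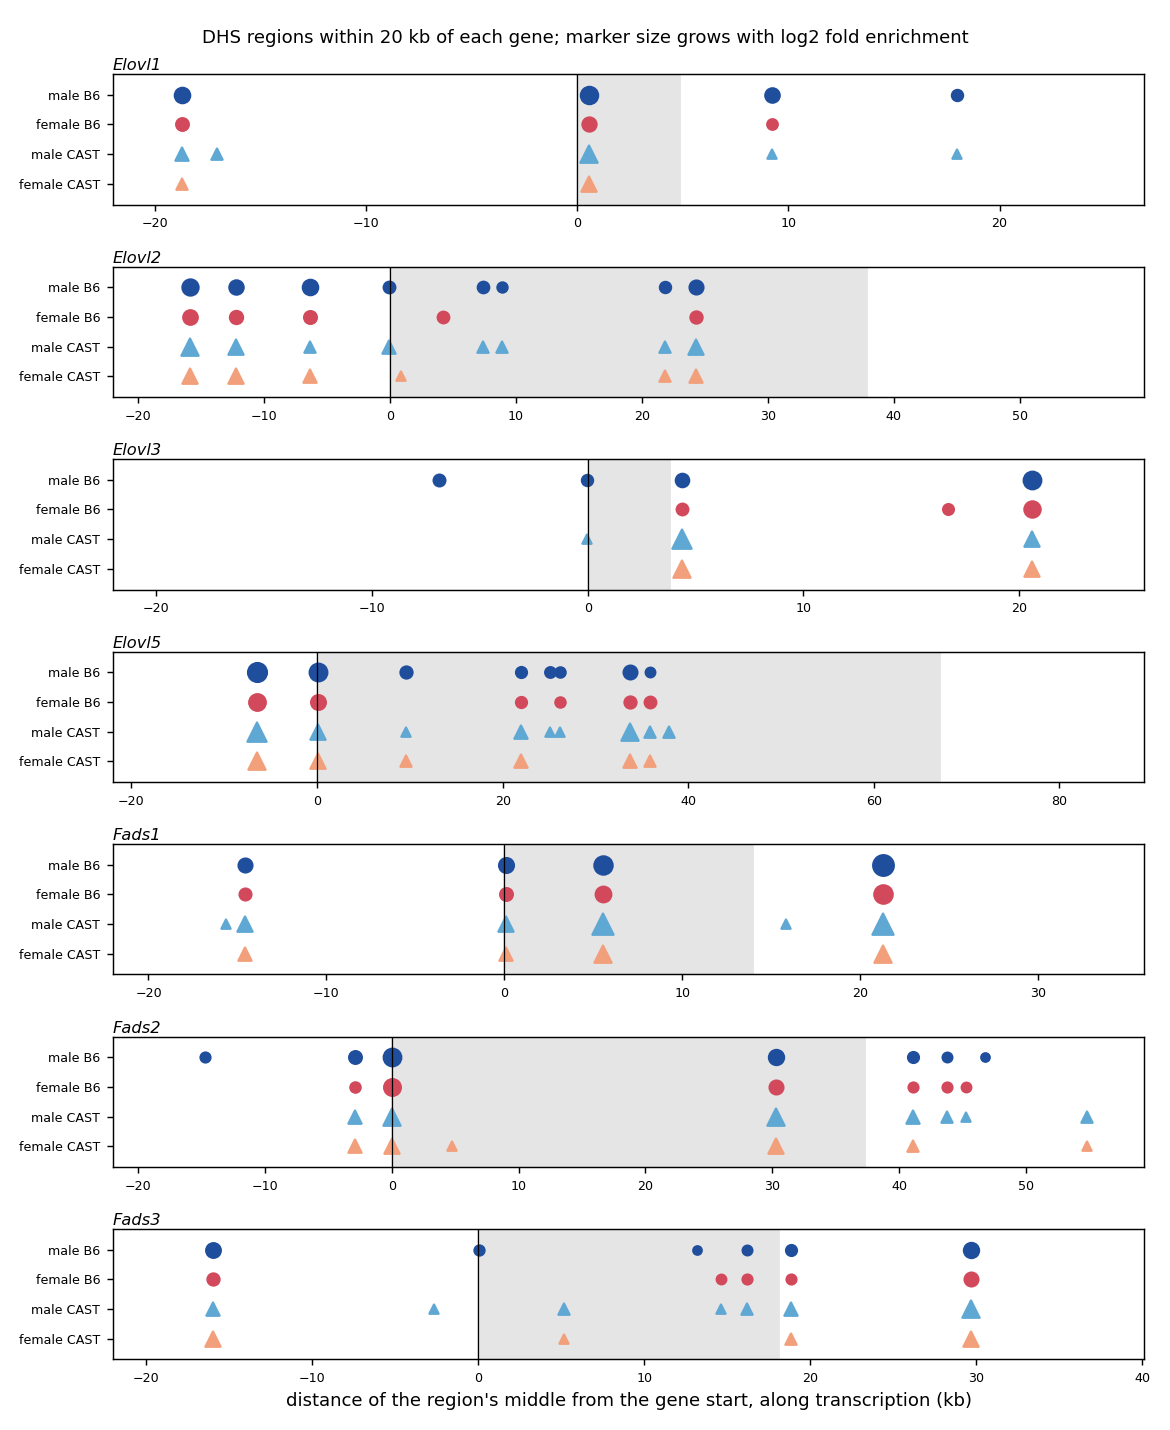
Distance of the middle of each region from the start of the gene, in kb along the direction of transcription (horizontal axis), with a row per list and a panel per gene. Marker size grows with log2 fold enrichment, grey marks the gene body, and the 6 regions shared by *Fads2* and *Fads3* appear in both panels.

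The strength of a peak is given as fold enrichment, the summit pileup over the local background. The promoter DHS of *Elovl1*, *Elovl5*, *Fads1* and *Fads2* was in every list, and those of *Elovl2*, *Elovl3* and *Fads3* had lower values and were missing from some lists. The weakest 5% of peaks had a fold enrichment below 2.06, 2.14, 2.098 and 2.48 in the 4 lists, in the order male B6, female B6, male CAST, female CAST, which is the order of every run of 4 values that follows. The region over the *Elovl2* start site ranked at the 31.9th percentile of male B6 peaks and the 42.8th of male CAST peaks. That of *Elovl3* was at the 24.4th and 11.9th, and that of *Fads3* at the 9.24th of male B6.

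**Figure D3:**
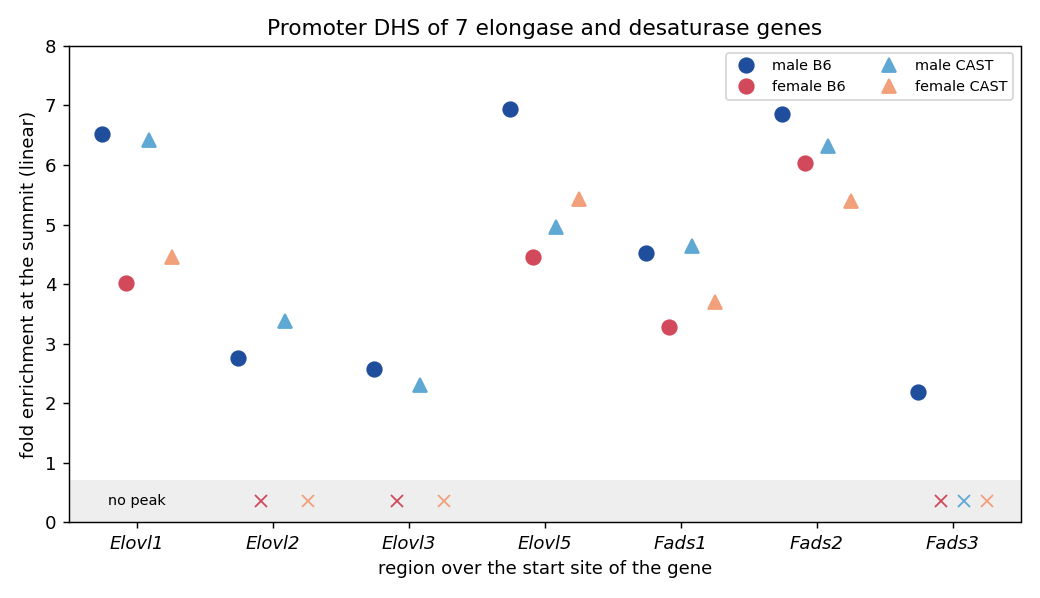
Fold enrichment at the summit (vertical axis, linear) of the region over the start site of each gene, with a marker per list and a cross where the list had no peak. The *Elovl1*, *Elovl5*, *Fads1* and *Fads2* regions lie between 3.28 and 6.94 in all 4 lists, and the *Elovl2*, *Elovl3* and *Fads3* regions have crosses.

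*Elovl3* (chr19:46206387-46210184) had 5 regions. Its promoter region, chr19:46206073-46206602, reached 2.57 in male B6 and 2.31 in male CAST, with a −log10 q of 10.5 and 8.38, and had no peak in either female list. The male lists thus held this promoter weakly and the female lists did not reach their threshold. Many peaks of this strength behave likewise. Of the 7385 regions whose male B6 fold enrichment was within 10% of that of *Elovl3*, 73.3% were missing from female B6, and of 6103 such regions in CAST 87.8% were missing from the female list. Of the 940 regions that matched it in both male lists, 574 (61.1%) had no peak in either female list. A rule that takes the genes with the most similar promoter in all 4 lists could not be applied to *Elovl3*. Instead, chosen after its values were seen, the genes with the same pattern of lists and the nearest male values were *Gpr84*, *Rhot2*, *Pck2*, *Fbp2* and *Pycr1*, for example *Gpr84* with 2.59 and 2.31. Among 12716 protein-coding genes with a promoter DHS, 479 (3.77%) had it in both male lists only and 4 in both female lists only.

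The region over the end of *Elovl3*, chr19:46210094-46211424, overlaps the last exon of *Elovl3* and coding sequence of *Pitx3*, a homeobox gene. Its summits lay past *Elovl3*, and at 355 bp from a *Pitx3* start site it counted as a promoter region of *Pitx3*. Its values were 3.61, 2.76, 8.52 and 7.20, so both CAST lists lay above both B6 lists. Between strains it was 2.24-fold higher in CAST in males (95% counting interval 1.83 to 2.75) and 2.195-fold in females (1.51 to 3.23), after centring on all regions. The interval covers counting error only, and the part of CAST read mapping in it was not tested. Its sex ratios were near 1, with 1.01-fold in B6 and 1.01-fold in CAST, in favour of females. It was the 1 region of the 48 that passed 1.5-fold the same way in both sexes or both strains. At *Gbf1*, a regulator of Golgi traffic, the promoter region gave 6.87, 5.59, 5.57 and 5.503. A region 6778 bp upstream of *Elovl3* was in male B6 alone (2.81). An intergenic region 86 bp from another *Pitx3* start site was in female B6 alone (2.43).

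*Elovl2* (chr13:41277864-41315774) had 10 regions, 4 of them in all 4 lists. The region over its start site, chr13:41315424-41316239, gave 2.76 in male B6 and 3.37 in male CAST, with a −log10 q of 12.8 and 17.99, and no peak in the female lists. A female CAST peak of 2.03 lay 538 bp from the start site, in the intron, as a separate region that is also within 2.5 kb. Of 6875 regions matched to its male B6 level, 65.05% were missing from female B6, and of 5637 matched to its male CAST level 52.2% were missing from female CAST. Among the 1172 regions matched in both male lists, 34.3% had no peak in either female list. In the intron, regions at chr13:41306645-41307124 and chr13:41307812-41308882 were also in the male lists alone, with 2.21 and 2.70 in male B6 and 2.93 and 2.70 in male CAST. Of the regions matched to each in both male lists, 53.7% and 46.6% had no peak in either female list. A region at chr13:41293631-41294178 was in every list but female B6, with 2.58, 2.87 and 2.39 in the others. The 4 *Elovl2* regions in all lists were 3 upstream and 1 in the intron. The one at chr13:41331111-41332192 gave 5.49, 4.28, 5.98 and 4.64, and its window holds CAAAGTCCA, a partial site of the liver factor HNF4. The upstream region at chr13:41327633-41328290 gave 4.13, 3.45, 5.01 and 4.85, and the intron region at chr13:41291174-41291829 gave 3.90, 2.99, 4.499 and 3.44. The one at chr13:41321684-41322506 gave 4.89 in male B6 and 2.71 in male CAST, 1.91-fold higher in B6 males (1.39 to 2.64), and 3.30 and 3.20 in the female lists, 1.22-fold in B6 females (0.788 to 1.95). Another intron region, 3784 bp from the start site, was in female B6 alone, at 2.74.

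*Elovl1* (chr4:118100698-118105558) had the promoter region chr4:118100329-118102192 in all lists, at 6.52, 4.01, 6.42 and 4.46. Males were higher by 1.23-fold in B6 (0.949 to 1.61) and 1.21-fold in CAST (0.918 to 1.61), and both intervals included 1. The region at the promoter of *Cdc20*, an activator of the anaphase-promoting complex, gave 4.22, 2.34 and 2.29 and had no peak in female CAST. It was 1.94-fold higher in B6 than in CAST males (1.27 to 3.02).

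*Elovl5* (chr9:77765171-77832326) had 9 regions. The promoter region chr9:77764735-77765806 gave 6.94, 4.46, 4.96 and 5.44, so it was highest in male B6. It was 1.48-fold higher in B6 than in CAST males (1.19 to 1.84), just short of 1.5-fold, and 0.974-fold in females (0.721 to 1.32). The region 5967 bp upstream was stronger than the promoter in every list, at 8.44, 5.91, 9.26 and 7.76. Another 3 regions lay within 2.5 kb of an alternative start site inside the gene. They gave 2.49, 2.504, 3.42 and 3.23 at chr9:77786886-77787518, 2.38 and 2.24 in male B6 and male CAST alone at chr9:77790151-77790486, and 2.26, 2.25 and 2.17 in every list but female CAST at chr9:77791032-77791629. The first of these was in all lists and the other 2 were missing from 1 or 2 lists. Of the regions matched in both male lists to chr9:77790151-77790486, 65.5% had no peak in either female list.

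In the *Elovl5* introns, chr9:77798616-77799212 gave 3.84, 2.94, 6.43 and 4.197 and was 1.58-fold higher in CAST than in B6 males (1.23 to 2.06), but 1.20-fold in females (0.838 to 1.72). The region chr9:77800683-77801468 was the 1 region past 1.5-fold in favour of B6 females. It gave 2.05, 2.77, 2.43 and 2.70, 1.78-fold higher in B6 females (1.21 to 2.65) and 1.32-fold in CAST females (0.864 to 1.98). At chr9:77774178-77775307 the values were 2.94, 2.31 and 2.92 with no peak in female B6, 1.503-fold higher in CAST females than males (0.927 to 2.42). A region at chr9:77802920-77803308 was in male CAST alone, at 2.71 with a −log10 q of 12.2.

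*Fads2* (chr19:10138654-10175993) had its promoter region chr19:10175043-10176984 in all lists, at 6.86, 6.03, 6.31 and 5.40. After centring, the male to female ratio was 0.862 in B6 (0.733 to 1.02) and 0.982 in CAST (0.793 to 1.22), and both intervals included 1, while B6 females exceeded CAST females by 1.32-fold (1.06 to 1.67). In males the strain ratio was 1.15 (0.99 to 1.33), an interval that included 1. A region 2634 bp upstream gave 3.26, 2.26, 3.33 and 3.39. In the *Fads2* intron chr19:10145123-10146314 gave 4.71, 3.86, 6.63 and 5.36, with both male lists above the female list of the same strain before centring and ratios of 0.925 and 1.04 after it. Between strains it was higher in CAST by 1.33-fold in males (1.09 to 1.62) and 1.17-fold in females (0.861 to 1.58). A region 4601 bp into the gene was in female CAST alone (2.22), and one 14507 bp upstream in male B6 alone (2.14).

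*Fads1* (chr19:10257378-10271360) had its promoter region chr19:10256900-10258014 in all lists, at 4.53, 3.28, 4.63 and 3.696. The 4 centred ratios ranged from 1.03 to 1.05, the smallest spread among promoters in all lists. A region in the *Fads1* intron, chr19:10262552-10263315, stood above the *Fads1* promoter in every list, at 7.59, 5.07, 10.9 and 6.78, with a −log10 q of 295 in male CAST. It was higher in CAST males than in CAST females by 1.35-fold (1.10 to 1.67), and lower in B6 than in CAST males, at 0.737-fold (0.638 to 0.850). The intervals of the other comparisons of this region included 1, with 1.13-fold for B6 males against females (0.928 to 1.39) and 0.889-fold for B6 against CAST females (0.689 to 1.15). A region 14174 bp upstream of *Fads1* was in all lists at 3.89, 2.86, 5.14 and 3.92. Those 15525 bp upstream (1.87) and 15646 bp downstream of the start site (2.21) were in male CAST alone. The promoter region shared by *Fen1*, a DNA repair nuclease gene, and *1810006K21Rik* was the highest of the 48 regions in every list but female CAST, at 10.95, 7.77, 11.4 and 7.21. This window held the sterol regulatory element core TCACNCCAC and an E-box.

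*Fads3* (chr19:10116038-10134161) had a region over its start site, chr19:10115855-10116303, in male B6 alone, at 2.18 with a −log10 q of 5.304. Another region, 2428 bp upstream and so also a promoter region by the 2.5 kb rule, was in male CAST alone, at 2.16. In the intron chr19:10120912-10121509 was in the CAST lists alone, at 2.82 for males and 2.09 for females. Over exons near the end of the gene, chr19:10131934-10132516 gave 2.07, 2.14 and 3.16, with none in female CAST. It was 0.733-fold in B6 males against females (0.547 to 0.987) and 1.45-fold higher in CAST than in B6 males (1.14 to 1.85). A region just past the gene, chr19:10134495-10135278, was in all 4 lists at 2.48, 2.13, 3.24 and 3.18. In coding sequence, a region 12999 bp from the start site was in male B6 alone, at 1.71. A region 15435 bp upstream, in an intron of *Rab3il1*, was in all lists at 4.38, 2.96, 3.95 and 4.38. Among the *Fads* genes of this set, *Fads3* had the lowest promoter value and the fewest lists with a promoter peak.

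Between sexes, 40 regions were in a B6 list, 12 only in males (36.4% of all regions) and 3 only in females (5.13%). In CAST, 42 regions were in a list, 15 only in males (40.3% of all regions) and 2 only in females (3.90%). The male lists were longer, and when all lists were cut to 24888 peaks the counts were 5 male-only and 6 female-only of 33 in B6, against 14.3% and 13.1% of all regions, and 4 and 5 of 31 in CAST, against 14.9% and 13.6%. Under that setting the region over the *Elovl2* start site was in both male lists alone, with the separate region 538 bp away still in female CAST, and the *Elovl3* promoter was in male B6 alone. At a stricter threshold, a −log10 q of 15.7, the *Elovl2* promoter was in male CAST alone and the *Elovl3* promoter in no list. Of the 48 regions, 6 had a peak in males of both strains and in females of neither, 12.5% against 9.38% of all regions. Of the 25 B6 regions in both lists, 0 were at least 1.5-fold higher in males (2.62% of all regions) and 1 in females (2.60%). Of the 25 CAST regions, 0 were higher in males (3.31%) and 1 in females (2.56%). These counts depend on the scale. Before centring, which took out a median male excess of 1.32-fold in B6 and 1.19-fold in CAST over all regions, 4 B6 regions were higher in males and 0 in females, against 24.3% and 0.0423% of all regions, and 3 and 0 in CAST, against 12.5% and 0.395%. With pileups over the genome-wide background, 1 was higher in male and 3 in female B6 (3.41% and 8.31% of all regions), and 2 in male and 1 in female CAST (4.24% and 6.92%). With lists of equal size, at the stricter threshold and at 2-fold, the single female calls of B6 and of CAST were both lost. The median centred log2 ratio was −0.01 in B6 and 0.00 in CAST.

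Between strains, 44 regions were in a male list, 4 only in B6 (19.1% of all regions) and 7 only in CAST (20.9%). In females, 33 were in a list, 6 only in B6 (22.6%) and 5 only in CAST (18.3%). Of the 33 regions in both male lists, 2 were at least 1.5-fold higher in B6 (4.49% of all regions) and 2 in CAST (6.68%). Of the 22 in both female lists, 0 were higher in B6 (3.42%) and 1 in CAST (4.97%). Over the genome-wide background, 4 were higher in B6 and 3 in CAST in males (7.93% and 11.6% of all regions), and 1 and 1 in females (6.63% and 8.68%). The count of regions higher in B6 males fell to 0 with lists of equal size, at the stricter threshold and at 2-fold, where 2, 2 and 1 were higher in CAST males, against 4.9%, 4.1% and 1.51% of all regions. In females the CAST call was lost at the stricter threshold. The *Elovl3* end region stayed higher in CAST under each scaling tried, at a log2 ratio of −1.16 to −1.24 in males and −1.13 to −1.38 in females. The medians were 0.02 in males and −0.08 in females. The regions shared between lists were 75% of the 44 in males and 66.7% of the 33 in females, against 59.96% and 59.1% of all regions. With 50% overlap the female share fell below that of all regions, at 18 of 38 against 17477 of 33682. The male share stayed above it, at 30 of 47 against 26886 of 51427.

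**Figure D4:**
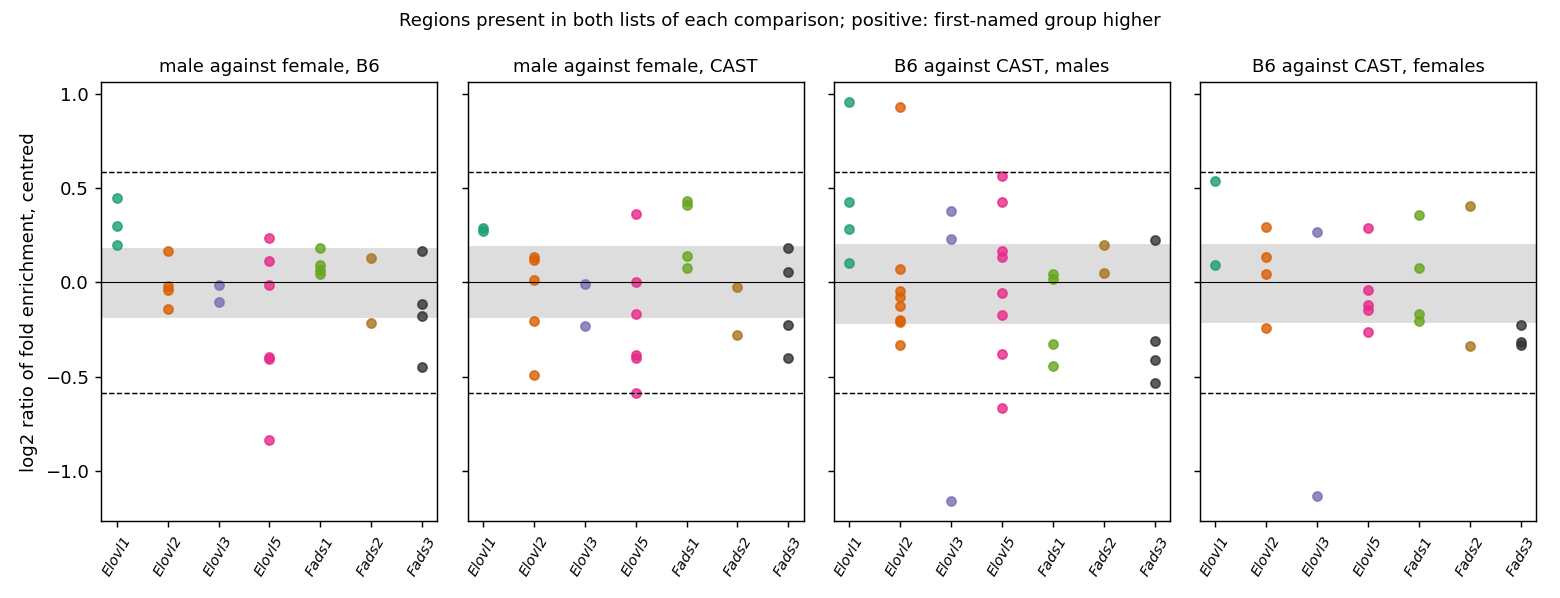
Centred log2 ratio of fold enrichment (vertical axis) for regions with a peak in both lists of a comparison, a panel per comparison and a column per gene, positive where the first-named group was higher. Grey spans the quartiles of all regions and dashed lines mark 1.5-fold. The *Elovl3* region at −1.16 in males and −1.13 in females is the only one past the line the same way in both sexes.

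A list of 22 further genes was described the same way. It held other elongases, desaturases and partners of the elongation cycle, and 7 genes of transcription factors that regulate lipid genes (*Srebf1*, *Nr1h3*, *Nr1h2*, *Ppara*, *Rxra*, *Mlxipl* and *Pparg*). These genes had 139 regions, of which 64 (46.0%, against 35.6% of all regions) were in all 4 lists. *Elovl6*, the elongase of palmitate, had 16 regions and a promoter at 8.69, 6.39, 8.31 and 9.19. *Elovl4* had no region. *Hsd17b12*, which reduces the condensation product, had 13 regions and a promoter at 11.03, 9.28, 9.75 and 9.89. *Scd1*, the stearoyl-CoA desaturase of liver, had 7 regions and a promoter at 4.43, 4.27, 3.82 and 4.07. *Scd2* had a promoter DHS in the male lists alone, at 2.88 and 3.02, as had 3.77% of the 12716 protein-coding genes with a promoter DHS. Of the 114 in a B6 list, 34 were only in males and 6 only in females, against 36.4% and 5.13% of all regions. Of the 118 in a CAST list, 35 were only in males and 5 only in females, against 40.3% and 3.90%. Among those in both lists, 0 of 74 were at least 1.5-fold higher in B6 males and 3 in B6 females (2.62% and 2.60% of all regions). In CAST, 1 and 3 of 78 were higher in males and females (3.31% and 2.56%).

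The same 300-base windows were searched on both strands for short motifs of factors known in liver. The GC box occurred in 12 of 48 windows (25%, against 20.01% of all windows and 47.1% of those near a start site). The E-box was found in 7 windows (14.6% against 7.10%), the HNF6 motifs ATCGAT and ATCAAT in 8 (16.7% against 14.5%), the STAT5 motif TTCNNNGAA in 5 (10.4% against 10.2%) and the C/EBP motif TTGCNNAA in 5 (10.4% against 17.2%). The STAT5 letters lay in the *Fads1* and *Fads2* intron windows, in 2 *Elovl5* intron windows and in the window upstream of *Fads3*. The sterol element core TCACNCCAC (2.08% against 1.14%) and the HNF4 letters CAAAGTCCA (2.08% against 1.68%) were each in 1 window. The forkhead motif TGTTTAC occurred in none of the 48 against 6.59% of all windows. The direct repeats AGGTCA with 1 or 4 bases between also occurred in none, and in 0.134% and 0.0233% of all windows. These shares depend on position, and 20 of the 48 windows lay near a start site, against 16931 of all 51482. Over all windows near a start site, the E-box occurred in 8.85%, the C/EBP motif in 10.96% and the forkhead motif in 3.85%. Farther away the shares were 6.25%, 20.3% and 7.93%. The windows of the 48 had a median G and C content of 52.2%, against 49.0% for all regions.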

How the data were processed

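DNase-seq libraries were 4 per group, with 16 in all, from liver nuclei digested with 32 U of DNase I, keeping fragments of 125 to 400 bp. Per the labels and methods, the authors mapped reads with Bowtie2 to mm9, CAST reads through a CAST genome converted to mm9, pooled the 4 libraries of a group and called peaks with MACS2. In the deposited lists the fold enrichment is the ratio of summit pileup plus 1 to background plus 1. The deposited −log10 p-value and −log10 q-value are the authors' scores of each peak, as is the score of column 5, and the other deposited column is the summit offset. Depth was recovered from fold enrichment and p-value, and pileups came out whole within 0.02 for 99.9% of male B6 peaks. The genes and lists were chosen with earlier results of these data known.

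Peaks overlapping by 1 bp were joined over the 4 lists, and a region took its highest fold enrichment per list. Ratios were centred on the median of all regions in both lists, and 1.5-fold was the threshold. Intervals (95%, exact conditional binomial, counting error only) came from pileups. Named with values were all 7 genes, regions within 2.5 kb of their start sites, regions missing from a list with a −log10 q of 10 or more in another, and regions past 1.5-fold the same way in both strains or sexes. Further regions named (the strongest, those in 1 list and neighbours) were chosen after their values were seen. The values of some regions near *Elovl1* are not reported here. Start sites and genes came from the GENCODE annotation of mm9. Python 3.11.15, numpy 2.4.6, scipy 1.17.1 and pandas 2.3.3 were used, and the calculations were tested on simulated peaks. Alternatives were a stricter threshold, 50% overlap, lists of equal size, 10 kb and 50 kb flanks, 2-fold, no centring, a genome-wide background and a width-weighted mean.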

Additional observations from a re-analysis of the deposited data

Results flagged for a closer look

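A region in coding sequence of *Fads3*, chr19:10130387-10130982, had a peak in female B6 (fold enrichment 2.04) and in male CAST (2.01) and none in male B6 or female CAST, so it was present in opposite sexes of the 2 strains. The difference was not tested, since each group is 1 pooled list. Both values lie below the 5th percentile of their lists. At these levels, 40.6% of female B6 peaks were missing from male B6 and 91.5% of male CAST peaks from female CAST.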

How the results depend on the processing

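No paired analysis was possible because the 4 libraries of each group were deposited as 1 pooled list, and no library could be left out in turn. Of 189 values recomputed, 49 moved, a count by over 1.5 times or another value past its 95% interval. The region over the end of *Elovl3* kept its strain direction under each alternative that gave a value. Medians close to 0 also changed sign, for example between sexes in B6 from −0.01 to 0.04 at the stricter threshold and 0.12 over the genome-wide background, between strains in females from −0.08 to 0.04 at either the stricter threshold or 50 kb flanks, and between strains in males from 0.02 to −0.06 with lists of equal size. With 50% overlap, 47.4% of regions (18 of 38) were in both female lists, a smaller share than the 17477 of 33682 for all regions. At a −log10 q of 15.7, 24 regions were left and 10 were in all 4 lists. The share of all regions in all 4 lists at this threshold is not given, so these counts are not set against it. Flanks of 50 kb gave 74 regions. Without centring, the median log2 ratio was 0.38 between sexes in B6, 0.25 in CAST and −0.33 between strains in females. The recovered background was lowest in female CAST, at 7.94.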
